A study of Canis lupus familiaris with 5 samples.

Results

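C1Q-positive macrophages of canine bone marrow were chosen by their own transcripts. A cell entered the group when it carried 5 or more unique molecular identifiers (UMIs, each counting 1 captured RNA molecule) of the 3 complement genes C1QA, C1QB and C1QC together. It also had to hold 200 or more detected genes and no more than 10% of its UMIs from mitochondrial genes. Of 16223 whole-marrow cells past those limits, 156 met the rule, with 63 in whole marrow 1, 62 in whole marrow 2 and 31 in whole marrow 3. All 5 libraries together held 24708 cells past the limits, from 27953 deposited barcodes.

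The study profiled bone marrow of 3 healthy wild-type dogs by droplet single-cell RNA sequencing, with 1 unsorted whole-marrow library from each dog and 2 further libraries of viable CD34+ cells sorted from marrows 2 and 3. CD34 marks stem and progenitor cells, and the labels do not say which sorted library belongs to which marrow. The cells had been flushed from femurs and red cells lysed, and per the labels' protocols whole marrows went on to sequencing only with over 70% viability and under 25% neutrophils. Shares of cells are therefore shares of these prepared libraries. No age or treatment is given, and every library aimed at 5000 cells.

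C1q is the recognition unit that starts the classical complement pathway, and its A, B and C chains are encoded by adjacent genes and assembled together. Tissue macrophages are a main source of it. Resident macrophages of the marrow engulf senescent red cells and the nuclei that erythroblasts expel, break down heme, store or export the iron, and hold erythroblasts around them in erythroblastic islands.

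Whole-marrow libraries held 46114431 to 54074420 UMIs each and sorted libraries 62188030 and 70169186. Pairs of libraries shared 4 to 12 cell barcodes, and 1 shared barcode was that of a C1Q-positive cell of whole marrow 1, also found in CD34-sorted library 2. The C1Q-positive cells were shallow, with a median of 1717.5 UMIs (502 to 57408) and 655.5 genes, and a median of 5.14% mitochondrial UMIs. Of the 156, 16 held over 10000 UMIs, and these 16 supplied 61.3% of the group's 738292 UMIs. Sums over the group therefore lean on few deep barcodes. The 140 members of at most 10000 UMIs (56, 56 and 28 by library) are called the shallower members. Their values are also given for part of the genes and lists, among them some where a call or a direction changed. That comparison was chosen after seeing the data.

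The 3 C1Q genes, whose counts chose the cells, are given as a description only. The members carried a median of 26 C1Q UMIs (5 to 216), or 1.56% of a cell's UMIs. C1QC was detected in 155 of the 156 cells, C1QB in 144 and C1QA in 140, and 132 cells held all 3. Levels are given as CPM, a gene's UMIs in the cells of a group scaled to a total of 1000000 UMIs. C1QC stood at 4421, 4667 and 4737 CPM in the members of whole marrows 1, 2 and 3. C1QA reached 890.3, 3918 and 3503 CPM in the same order, and C1QB 697, 3451 and 2928. Whole marrow 1 thus lay below the other two for C1QA and C1QB and close to them for C1QC, with 1 dog per library and no test.

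Nearly all C1Q RNA lay in these cells: they held 6600 of the 7102 C1Q UMIs of all kept whole-marrow cells (92.5%, 95% and 89.3% by library), and 96.5% of cells carried none. T cells, a type that should lack C1q, served as the background: 4.67%, 4.08% and 8.38% of them carried 1 or more C1Q UMIs, at median depths of 2525, 2890 and 4850 UMIs. Of these T cells 2, 1 and 1 held 5 or more C1Q UMIs and are themselves among the 156. At the edge of the rule, 7 cells held 5 C1Q UMIs and 8 cells held 4. HMOX1 was detected in 6 of the 7 just inside and in all 8 just outside, and SPIC in 6 of the 7 and 6 of the 8. FTL stood at 10376 CPM in the former and 65271 in the latter, but 1 cell of 52158 UMIs supplied most of the 62547 UMIs of the former, against 12992 in the latter. HMOX1 and SPIC were thus detected on both sides of the limit.

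**Figure D1:**
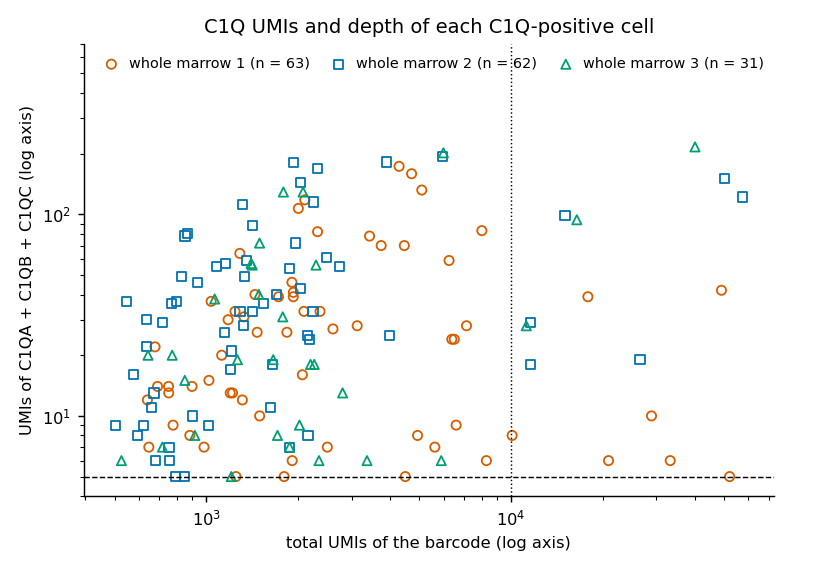
Each point is 1 of the 156 C1Q-positive cells, with its total UMIs on the x axis and its C1Q UMIs on the y axis, both on log axes, and its whole-marrow library by shape and colour. The dashed line marks the rule's 5 C1Q UMIs and the dotted line 10000 total UMIs: 16 cells lie to the right of it, and C1Q counts run from 5 to 216.

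HMOX1 and CD163 are the 2 of the label's 5 marker genes that the rule did not use. The label was set with earlier results of these data known, so they describe the group and are no independent check. HMOX1, heme oxygenase 1, the enzyme that opens the heme ring, was detected in 145 of 156 members. CD163, the receptor for haptoglobin-bound hemoglobin, was detected in 54. Of the 38 members with 5 to 9 C1Q UMIs, 2 held CD163. In the sums both genes were far above the other marrow cells, as described below. The name macrophage was kept for the group, and it was not shown for each member.

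By library, C1Q-positive cells made up 0.864% (exact 95% binomial interval 0.664 to 1.10), 1.35% (1.04 to 1.73) and 0.714% (0.485 to 1.01) of whole-marrow cells. The CD34-sorted libraries held 5 and 3 such cells, 0.106% (0.0344 to 0.247) and 0.0797% (0.0164 to 0.233). These intervals cover counting error only. The mean share was 0.977% ± 0.334 (SD, n = 3) against 0.0928% ± 0.0186 (SD, n = 2), and the ranges did not overlap. The difference of 0.884 percentage points had an exact two-sided permutation p of 0.1, the smallest that 3 libraries against 2 allow. The test treated the libraries as independent and ignored that the sorted cells came from the dogs of whole marrows 2 and 3. With a 5% mitochondrial limit the difference was -0.0342 points (exact p = 1). The sorted mean was then 0.686% ± 0.704 (SD, n = 2) and the whole-marrow mean 0.652% ± 0.284 (SD, n = 3). The sorted libraries had median mitochondrial shares of 6.12% and 7.83%. Their mean at that limit rests on at most the 5 and 3 cells above, and the 2 libraries spread widely. The 8 sorted cells held HMOX1 in 6 and FTL in 8, with HMOX1 at 1254 CPM, and 4 of the 8 also held CD34 UMIs.

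To see what sets the C1Q-positive cells apart from the cells nearest to them, their UMIs were summed per library and compared with C1Q-zero monocyte-lineage cells. Those were selected on no C1Q UMI and 1 or more UMIs each of LY86 and CSF1R, and numbered 690 (146, 336 and 208), with median depths of 12085.5, 11516.5 and 15008 UMIs. LY86, CSF1R and SLAMF9 were not tested in that comparison. A second comparison set the C1Q-positive cells against the other 15377 whole-marrow cells. Both comparisons share the same C1Q-positive sums, so their values are set side by side and not counted as 2 independent results. The samples are the 3 dogs' libraries, each giving 1 sum per group, and a gene rose or fell where edgeR's quasi-likelihood test gave a Benjamini-Hochberg adjusted p under 0.05 over all tested genes.

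Against the monocyte-lineage cells, 661 of 8803 tested genes were higher in C1Q-positive cells (7.51%) and 755 were lower (8.58%). Against all other marrow cells, 537 of 8806 were higher (6.1%) and 728 lower (8.27%). The median log2 fold over all tested genes was -0.12 and -0.17, and list medians below are read beside those values. With C1Q-positive cells of at most 10000 UMIs the medians of all genes moved to -0.39 and -0.43. In that setting 606 of 8625 tested genes were higher and 1044 lower against the monocyte-lineage cells. Against all other cells 743 of 8628 were higher and 1333 lower. The limit was set on the C1Q-positive cells only, and the comparators kept their deep cells.

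**Figure D2:**
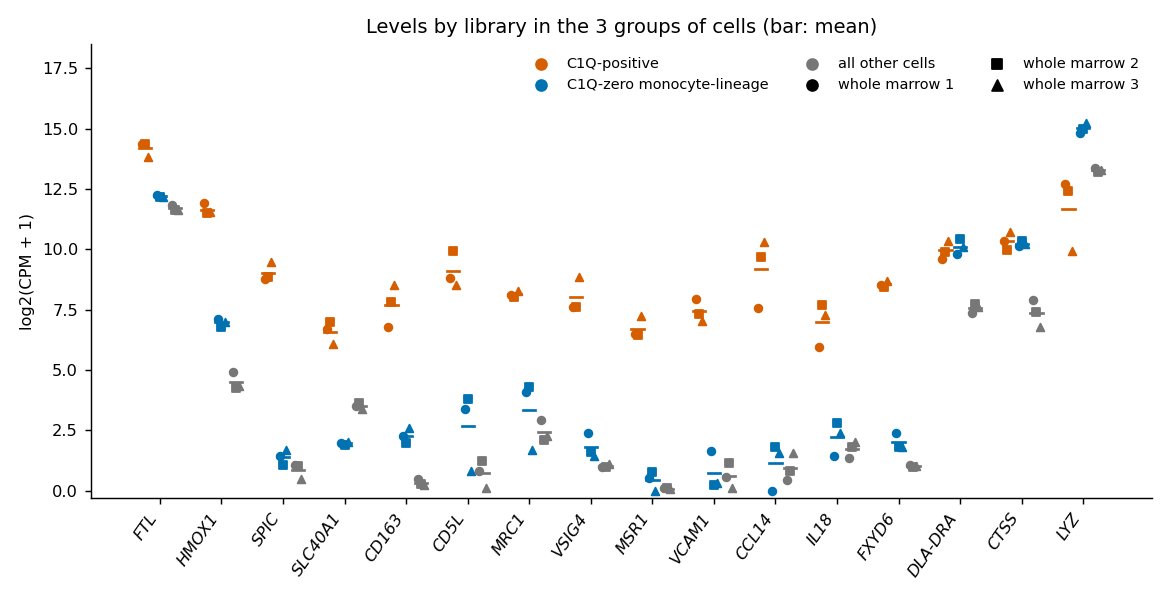
Levels in CPM, as log2 of the value plus 1, for 16 genes in the C1Q-positive cells, the C1Q-zero monocyte-lineage cells and all other whole-marrow cells. Points are the 3 libraries and bars their means. HMOX1 in C1Q-positive cells runs from 2882 to 3832 CPM, above every other library sum, whereas DLA-DRA and CTSS overlap those of the monocyte-lineage cells.

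Of 19 tested genes of iron and heme recycling, 11 rose and 2 fell against the monocyte-lineage cells (median log2 fold 1.69), and 8 rose and 2 fell against all other cells (median 0.42). HMOX1 stood at 3832, 2882 and 2985 CPM in the C1Q-positive cells of whole marrows 1 to 3. It was at 139, 110.3 and 126 in the monocyte-lineage cells and at 29.1, 17.9 and 19.1 in all other cells, with no overlap between groups. The log2 fold was 4.70 ± 0.14 (SE) against the first and 6.93 ± 0.16 against the second (edgeR adjusted p = 6.0e-24 and 2.6e-28). In the 140 shallower members HMOX1 was at 8543, 7745 and 6059 CPM.

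SPIC, the transcription factor required for iron-recycling macrophages of spleen and marrow, was at 437, 463 and 707 CPM in C1Q-positive cells. No other library sum reached 3: the monocyte-lineage cells held 1.71, 1.09 and 2.25 and all other cells 1.09, 1.05 and 0.419. SPIC rose by 8.31 ± 0.31 and 8.92 ± 0.26 on the log2 scale (edgeR adjusted p = 2.5e-11 and 4.2e-13). SLC40A1, ferroportin, the iron exporter, was at 102, 125 and 65.8 CPM, against 3.00, 2.74 and 3.01 in monocyte-lineage cells and 10.3, 11.6 and 9.43 in the rest, again without overlap.

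The ferritin chains that store iron were the most abundant members of the list. FTL, the light chain, reached 21057, 20859 and 14638 CPM in C1Q-positive cells, against 4844, 4648 and 4544 in monocyte-lineage cells and 3632, 3183 and 3135 in all other cells. FTH1, the heavy chain, was at 10528, 13326 and 9967 against 3466, 3492 and 2976, and 3248, 3449 and 2945. Both were detected in all 156 cells, and their log2 folds were 2.02 ± 0.15 and 1.78 ± 0.11 against the monocyte-lineage cells (edgeR adjusted p = 2.1e-07 and 7.3e-15). In the shallower members FTL stood at 44744, 54831 and 27155 CPM. Ferritin genes have many processed copies in mammalian genomes, so reads that a copy shares are uncertain.

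BLVRB, biliverdin reductase B, rose against the monocyte-lineage cells (log2 fold 4.26 ± 0.45, edgeR adjusted p = 0.0056; 0.096 without whole marrow 3), with 431, 1294 and 913 CPM against 8.99, 112 and 40.3. Against all other cells, at 257, 822 and 536, it was 0.42 ± 0.39 (adjusted p = 0.60). NCOA4, which carries ferritin to lysosomes for breakdown, rose in both comparisons by 1.19 ± 0.17 and 0.82 ± 0.16 on the log2 scale, calls that were lost with a 5% mitochondrial limit (edgeR adjusted p = 0.079 and 0.39). TFRC, the transferrin receptor for iron uptake, rose against the monocyte-lineage cells (2.17 ± 0.27) in the sum of all members. It lay at -0.65 (edgeR adjusted p = 0.64) in the 140 shallower members, where it stood at 6.69, 12.1 and 18.6 CPM. CP, ceruloplasmin, was at 2.18 ± 0.29 with all members and 0.83 (adjusted p = 0.31) in the shallower ones. TFRC and CP were the 2 genes of the list that fell against all other cells, at -0.93 ± 0.21 and -1.64 ± 0.22 (edgeR adjusted p = 0.0011 and 3.7e-05). Both calls were lost with a 5% mitochondrial limit (0.31 and 0.40), and that of TFRC without whole marrow 2 (0.13) or the replicate block (0.18). HFE, a regulator of iron uptake, had 0 UMIs in the C1Q-positive cells against 5.99 to 7.77 CPM in monocyte-lineage cells, at least 1.69-fold lower when 3 counts are taken as the floor of the group; its call (edgeR adjusted p = 0.0497) was lost in the shallower members (0.18).

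Among 19 tested scavenger and clearance receptors, 11 rose and 1 fell against the monocyte-lineage cells (median log2 fold 3.02), and 14 rose and none fell against all other cells (median 5.30). The gene that fell was TREM2, a lipid receptor of macrophages, with 2 UMIs in the group (log2 fold -2.88 ± 0.77, edgeR adjusted p = 0.0068; 0.051 in the shallower members). CD163 was at 111, 224 and 362 CPM in C1Q-positive cells, at 3.85, 2.92 and 5.01 in monocyte-lineage cells and at most 0.405 in the rest (log2 folds 5.83 ± 0.35 and 9.22 ± 0.36, edgeR adjusted p = 1.1e-12 and 9.9e-17). CD5L, a protein that tissue macrophages secrete, was at 453, 980.4 and 362 against 9.41, 13.1 and 0.752, and 0.769, 1.38 and 0.0987. Members of every library lay above every comparator sum for both genes.

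The mannose receptor MRC1 was even across dogs, at 276, 259 and 312 CPM, and rose by 4.47 ± 0.66 against the monocyte-lineage cells (edgeR adjusted p = 0.018). The adjusted p was 0.22 without whole marrow 1 (log2 fold 4.58) and 0.23 with a 5% mitochondrial limit (2.40). MSR1, the class A scavenger receptor, was at 88.5, 86.3 and 148 and had under 1 CPM in every comparator sum. CD209, a C-type lectin, was at 22.1, 74.5 and 65.8 CPM, CD36, a fatty acid and scavenger receptor, at 33.2, 27.5 and 32.9, and AXL, a receptor for dying cells, at 33.2, 15.7 and 32.9. All 3 were under 3 CPM in the comparators and passed both tests. CD68, a lysosomal membrane glycoprotein used as a macrophage marker, was at 141, 463 and 206 against 8.99, 18.6 and 14.3 in monocyte-lineage cells (log2 fold 4.30 ± 0.22, edgeR adjusted p = 1.2e-17). LYVE1, a hyaluronan receptor, was uneven, at 2.76, 7.84 and 107 CPM in 5 cells, and its call against the monocyte-lineage cells was lost without whole marrow 3 (edgeR adjusted p = 0.10).

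Genes of the erythroblastic island macrophage, a list that overlaps those above in SPIC, HMOX1, CD163, AXL, SIGLEC1 and MERTK, gave 9 of 12 tested genes higher and none lower in both comparisons (medians 4.47 and 4.20). VCAM1, the adhesion molecule that binds integrin on erythroblasts, was at 243, 161 and 132 CPM in C1Q-positive cells. It was at 2.14, 0.182 and 0.251 in monocyte-lineage cells and 0.486, 1.25 and 0.0740 in the rest (log2 folds 8.26 ± 0.79 and 8.04 ± 0.63, edgeR adjusted p = 3.6e-04 and 1.1e-04). ICAM1, a second adhesion molecule, was at 19.4, 15.7 and 32.9 and under 1 elsewhere. DNASE2, the lysosomal enzyme that digests the DNA of expelled nuclei, was at 282, 255 and 263 against 80.0, 65.5 and 74.4, and 19.9, 13.9 and 17.9, a fold of 1.91 ± 0.16 and 3.70 ± 0.16 on the log2 scale. None of these 3 genes overlapped a comparator in any library.

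Erythroid markers were not absent from these sums. The 12 erythroid markers, all 12 detected, summed to 926, 4576 and 387 CPM in the C1Q-positive cells, 98.4, 622 and 100.5 in monocyte-lineage cells, and 7301, 9584 and 7414 in all other cells. In the 140 shallower members they came to 261, 519.6 and 799, with 11 of 12 detected and SLC4A1, the band 3 anion exchanger of the red cell membrane, at 0. Island genes were as high or higher there, with VCAM1 at 562, 435 and 223 CPM.

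Complement genes other than C1Q were few. Of 12 tested, 4 rose against the monocyte-lineage cells and 4 rose and 1 fell against all other cells (medians 0.99 and 0.56). VSIG4, a macrophage receptor for complement C3 fragments, was at 194, 196 and 461 CPM, against at most 4.28 in any other sum (log2 folds 6.76 ± 0.30 and 7.66 ± 0.26, edgeR adjusted p = 8.9e-19 and 1.5e-22). CFP, properdin, which stabilizes the alternative pathway convertase, was at 309.7, 647 and 403 against 175, 222 and 196, and 95.4, 99.3 and 99.9. C3AR1, the receptor for the C3a fragment, was detected in 5 members only. The remaining gene that rose in both was LRP1, an endocytic receptor, and C5AR1, the C5a receptor, was the one that fell against all other cells (-0.71 ± 0.25, edgeR adjusted p = 0.048), at -0.01 (adjusted p = 0.99) in the shallower members.

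**Figure D3:**
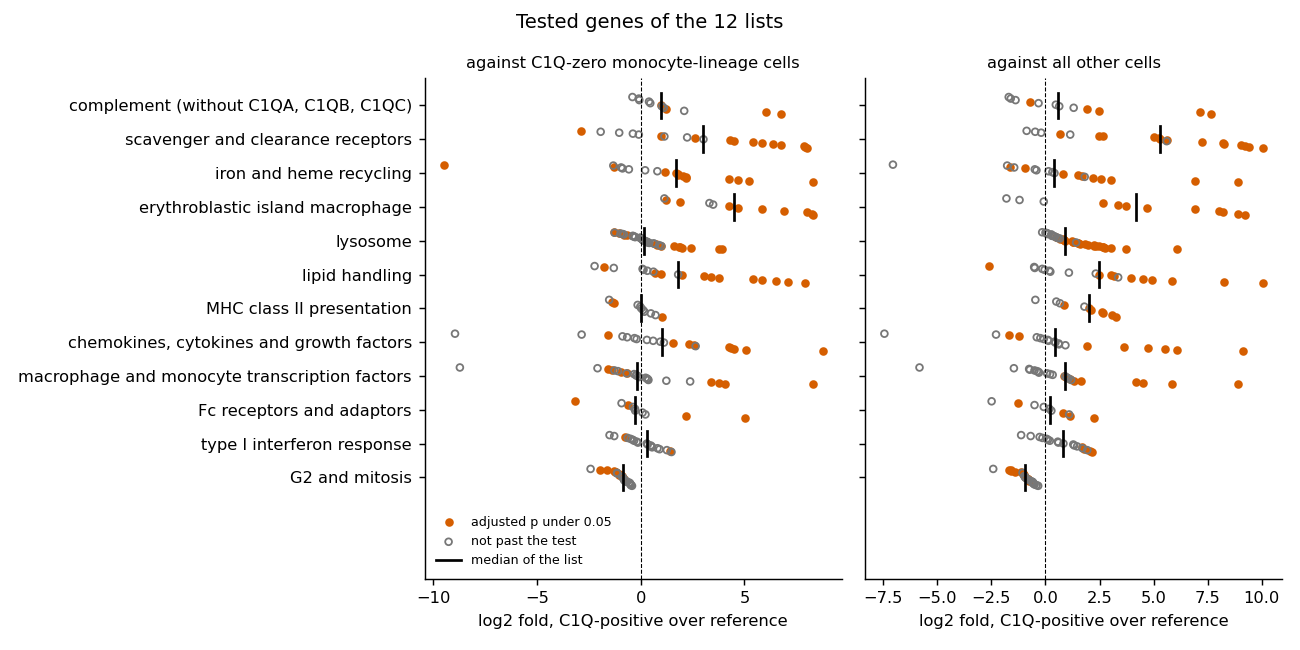
Log2 fold of each tested gene of the 12 lists, C1Q-positive cells over C1Q-zero monocyte-lineage cells on the left and over all other whole-marrow cells on the right. Filled points have an adjusted p under 0.05 and black ticks are list medians. Scavenger and island lists have the medians farthest to the right, and no gene of the G2 and mitosis list is filled on the right of 0.

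Lysosomal genes separated the 2 comparisons. Among 39 tested, 24 rose and none fell against all other cells (median log2 fold 0.90), while 10 rose and 4 fell against the monocyte-lineage cells (median 0.17). In the shallower members the counts against the monocyte-lineage cells were 18 and 3, beside 606 higher and 1044 lower of all 8625 tested genes. LGMN, the asparagine-specific endopeptidase, was at 299, 267 and 370.1 CPM against 21.0, 15.3 and 23.8, and 5.48, 3.16 and 2.49 (log2 folds 3.92 ± 0.25 and 6.07 ± 0.25, edgeR adjusted p = 3.9e-09 and 6.2e-12). ACP5, tartrate-resistant acid phosphatase, was at 116, 122 and 206 against 5.13, 12.9 and 10.0 in monocyte-lineage cells. ACP5 is also an osteoclast marker. Of 8 osteoclast markers 4 were detected in the members, summing to 119, 129 and 271 CPM against 13.3, 34.3 and 24.8 in monocyte-lineage cells and 53.6, 49.3 and 59.1 in all other cells, with ACP5 supplying most of it. OSCAR, OCSTAMP, CALCR and ATP6V0D2 had 0 UMIs in the members, and the last 3 of these also had 0 in the monocyte-lineage cells.

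CTSC, the protease that activates granule serine proteases, rose in both comparisons, at 207, 714 and 509.9 CPM. CTSS, cathepsin S, was among the most abundant at 1288, 1004 and 1669, and did not differ detectably from the monocyte-lineage cells at 1122, 1291 and 1198 (log2 fold 0.11 ± 0.28, edgeR adjusted p = 0.86), and was 0.73 higher on that scale in the shallower members (adjusted p = 0.0023). It rose by 2.66 ± 0.30 against all other cells, at 235, 169 and 110.1. ASAH1, acid ceramidase, rose by 2.41 ± 0.28 and 1.61 ± 0.26 on the log2 scale. LIPA, the lysosomal acid lipase, rose against all other cells (3.01 ± 0.49; edgeR adjusted p = 0.15 with a 5% mitochondrial limit). Against the monocyte-lineage cells it was 0.61 ± 0.42 (edgeR adjusted p = 0.36), and 1.38 (adjusted p = 0.023) in the shallower members.

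Lipid handling genes gave 11 of 19 higher and 1 lower against the monocyte-lineage cells (median log2 fold 1.80) and 9 higher and 1 lower against all other cells (median 2.49). NR1H3, the nuclear receptor LXR alpha that senses oxysterols, was at 91.2, 133 and 90.5 CPM against 9.41, 11.9 and 10.0, and 1.56, 1.71 and 1.31, with no overlap (log2 folds 3.37 ± 0.29 and 5.83 ± 0.30, edgeR adjusted p = 2.3e-11 and 2.1e-17). ABCA1, the cholesterol exporter that LXR is known to induce, was at 299, 165 and 238 against 48.4, 28.6 and 11.5 (log2 fold 3.06 ± 0.32), but -0.16 (edgeR adjusted p = 0.89) with a 5% mitochondrial limit. PPARG, a nuclear receptor for fatty acids, spread over the dogs at 171, 86.3 and 32.9, each still above the monocyte-lineage cells at 8.13 to 8.27. PLTP, phospholipid transfer protein, was detected in 10 cells at 5.53, 27.5 and 8.22, and its call against all other cells was lost without whole marrow 2 (edgeR adjusted p = 0.11). APOE, a major apolipoprotein of many tissue macrophages, was detected in 3 members, at 5.53, 0 and 139.8 CPM, with an edgeR adjusted p of 0.035 against the monocyte-lineage cells.

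For antigen presentation genes, the comparison with the monocyte-lineage cells changed with the setting. Of 11 tested, 7 rose and none fell against all other cells (median log2 fold 2.01), whereas 1 rose and 2 fell against the monocyte-lineage cells (median 0.03). DLA-DRA, the class II alpha chain, was at 777, 957 and 1316 CPM in C1Q-positive cells and 897, 1378 and 1100.0 in monocyte-lineage cells, and these ranges overlapped. All other cells held 162, 212 and 192 (log2 fold 2.11 ± 0.13, edgeR adjusted p = 1.1e-15). DLA-DQA1 was the gene that rose (1.05 ± 0.16; 0.40 with an edgeR adjusted p of 0.46 at a 5% mitochondrial limit), and IFI30, a lysosomal thiol reductase, and MARCHF1, which removes class II from the surface, fell by 1.29 and 1.39 on the log2 scale. Both calls were lost with every cell thinned to 500 UMIs (edgeR adjusted p = 0.21 for each). That of IFI30 was also lost with a comparator of 2 or more UMIs of LY86 plus SLAMF9 (0.14). In the shallower members 6 of 11 rose and 1 fell against the monocyte-lineage cells, MARCHF1 then missing the threshold (adjusted p = 0.066). The list median was then 0.68. Over all tested genes 606 of 8625 rose and 1044 fell in that setting. At a 5% mitochondrial limit none of 9 tested genes of the list rose and 3 fell (median -0.62). Over all tested genes 266 of 5309 rose and 387 fell at that limit.

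Among chemokines, cytokines and growth factors 8 of 20 rose and 1 fell against the monocyte-lineage cells (median log2 fold 1.03), and 6 rose and 2 fell against all other cells (median 0.44). CCL14, a chemokine, was at 188, 816 and 1258 CPM in C1Q-positive cells and at most 2.55 in any comparator sum (log2 folds 8.76 ± 0.25 and 9.15 ± 0.21, edgeR adjusted p = 1.1e-17 and 4.9e-20). Whole marrow 1 was lowest, far below the other dogs' values. IL18, an inflammasome-processed cytokine, was at 60.8, 204 and 156 against 1.71, 6.02 and 4.26, and 1.58, 2.50 and 3.03, and whole marrow 1 was lowest here too. SPP1, osteopontin, was at 19.4, 66.7 and 41.1 and under 4 elsewhere. The gene that fell against the monocyte-lineage cells was TNFSF13, the B-cell growth factor APRIL, at 99.5, 54.9 and 57.6 against 249, 194 and 231 (log2 fold -1.59 ± 0.21, edgeR adjusted p = 9.0e-07).

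Transcription factors of macrophages and monocytes moved both ways against the monocyte-lineage cells, with 4 of 24 higher and 4 lower (median log2 fold -0.17). Against all other cells 9 rose and none fell (median 0.89). SPIC, NR1H3 and PPARG, described above, rose in both comparisons. SPI1, PU.1, the master factor of the myeloid lineage, fell against the monocyte-lineage cells by 0.94 on the log2 scale, at 221, 188 and 378 against 494, 449.9 and 499. Its call was lost with a 5% mitochondrial limit (edgeR adjusted p = 0.070) and with every cell thinned to 500 UMIs (0.18).

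Fc receptors and adaptors gave 2 of 10 higher and 2 lower against the monocyte-lineage cells (median log2 fold -0.27) and 3 higher and 1 lower against all other cells (median 0.23). FCGRT, the neonatal Fc receptor that recycles IgG, was at 445, 443 and 461 CPM against 129.7, 118 and 58.4, and 79.3, 85.7 and 60.8. It was even across the dogs' C1Q-positive cells (log2 folds 2.19 ± 0.15 and 2.26 ± 0.15, edgeR adjusted p = 2.7e-12 and 4.2e-13; 0.097 and 0.093 with a 5% mitochondrial limit). Type I interferon response genes showed 1 of 19 higher and 1 lower against the monocyte-lineage cells (median 0.29), and 4 higher against all other cells (median 0.83). Those counts were 3 and 0, and 5 and 0, without whole marrow 2, and 0 and 3, and 1 and 0, without whole marrow 1. Over all tested genes without whole marrow 2, 494 of 8286 rose and 441 fell, and 451 of 8289 rose and 461 fell. Without whole marrow 1 these were 454 and 513 of 9139, and 421 and 414 of 9142. In the shallower members 4 of 10 Fc genes rose and none fell against the monocyte-lineage cells (median 0.70). Against all other cells 5 rose and none fell (median 1.12). Of 19 interferon genes 4 rose there (median 0.85), and 9 against all other cells (median 1.53), and none fell. Over all tested genes 606 rose and 1044 fell of 8625, and 743 rose and 1333 fell of 8628, in the same order.

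Proliferation genes were low. Of 27 tested genes of G2 and mitosis none rose, and 11 fell against the monocyte-lineage cells and 13 against all other cells (medians -0.85 and -0.94). With called doublets removed the counts were 6 and 10. Over all tested genes, 651 of 8725 then fell against the monocyte-lineage cells and 679 of 8728 against all other cells. In the 140 shallower members 25 of 27 fell in either comparison (medians -3.88 and -4.00), beside 1044 of 8625 and 1333 of 8628 over all tested genes. The depth limit cut the C1Q-positive cells only and the comparators kept their deep cells, so these larger falls are no separate support. MKI67, the proliferation antigen, was detected in 18 members, 12 of them among the 16 deep ones. It was at 138, 227 and 74.0 CPM in all members and at 13.4, 36.2 and 18.6 in the shallower ones, against 424, 315 and 343 in monocyte-lineage cells. Its call against those (edgeR adjusted p = 0.022) was lost without whole marrow 1 (0.097) and with doublets removed (0.22). TOP2A, which untangles chromosomes, was at 288, 380.4 and 271, and 13.4, 24.2 and 0 in the shallower members.

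Several genes outside the lists were among the 12 that rose most in either comparison. FAM151A was at 259.9, 224 and 206 CPM in C1Q-positive cells, with 2 UMIs in all monocyte-lineage cells together, a ratio of 1408 with an exact counting interval of 384 to 11717. FXYD6, a regulator of the sodium pump, was at 368, 349 and 411 against 4.28, 2.55 and 2.51, and 1.07, 0.995 and 1.01 (log2 folds 7.0 ± 0.23 and 8.21 ± 0.21, edgeR adjusted p = 6.9e-23 and 5.3e-27). PRSS23, a secreted serine protease, had 41 UMIs in the members and 0 in the monocyte-lineage cells, at least 219-fold higher with 3 counts as the floor of the group. DAB2, an endocytic adaptor, was at 254, 184 and 477, and under 6 in any comparator sum.

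PCOLCE2, an enhancer of procollagen processing, was at 82.9, 141 and 65.8 CPM, and PLA2R1, the phospholipase A2 receptor, at 63.6, 47.1 and 74.0. SAT2, an acetyltransferase, was at 55.3, 78.4 and 65.8, and SLC7A8, an amino acid transporter, at 44.2, 109.8 and 65.8. Each of these 4 was under 1 CPM in every sum of both comparators and passed both tests.

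The genes that fell most against the monocyte-lineage cells included SERPINB10, a serpin of myeloid precursors, at 13.8, 7.84 and 16.4 CPM against 179, 233 and 188. ITGB7, the integrin beta 7 chain, was at 27.6, 3.92 and 16.4 against 166, 141 and 184 (log2 fold -3.17 ± 0.30, edgeR adjusted p = 2.8e-10). THY1, GIMAP4 and LRRK2 were also among them. LRRK2 lost its call without whole marrow 2 (edgeR adjusted p = 0.062) and THY1 with a 5% mitochondrial limit (0.30). Against all other cells the largest falls were of IGKC, the immunoglobulin kappa constant region, at 2.76, 86.3 and 16.4 against 261, 2855 and 1161, and of neutrophil genes such as MMP8 (15.7 to 24.9 against 227 to 256), MMP9 (32.9 to 47.0 against 368 to 501) and CD177.

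Per cell, the macrophage genes were detected unevenly. HMOX1 and SPIC were found together in 108 of the 156 members and neither in 8, and HMOX1, SPIC and CD163 together in 42. At least 4 of the 8 genes SPIC, HMOX1, CD163, VCAM1, CD5L, CCL14, MRC1 and VSIG4 were found in 104 members, and none of the 7 other than HMOX1 in 6. Because a shallow cell misses genes, every cell was also thinned at random to 500 UMIs, the smallest depth deposited, which left out no cell. HMOX1 was then found in 77.8%, 77.4% and 77.4% of C1Q-positive cells, 11.0%, 9.2% and 10.1% of monocyte-lineage cells and 2.7%, 1.4% and 3.9% of T cells. Without thinning these shares were 93.7%, 93.5% and 90.3%, then 73.3%, 68.5% and 78.4%, and 10.1%, 13.6% and 20.7%, at median depths of 2003, 1328 and 1780 UMIs in the members.

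SPIC was found in 36.5%, 35.5% and 45.2% of thinned C1Q-positive cells and in at most 0.8% of thinned monocyte-lineage or T cells of any library (74.6%, 69.4% and 67.7% of members without thinning). CCL14 was in 19%, 56.5% and 58.1% of thinned members, so whole marrow 1 was low in the share of cells as in level. CD163 was in 11.1%, 12.9% and 12.9% of thinned members (33.3%, 38.7% and 29.0% without thinning). In the 92 members under 2000 UMIs it had 43 UMIs, in 24 cells. LYZ, lysozyme, ran the other way: it was in 25.4%, 24.2% and 12.9% of thinned members, 97.9%, 97.9% and 99.5% of thinned monocyte-lineage cells and 15.2%, 18.4% and 24% of thinned T cells. The share of members with LYZ thus overlapped the background in T cells.

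**Figure D4:**
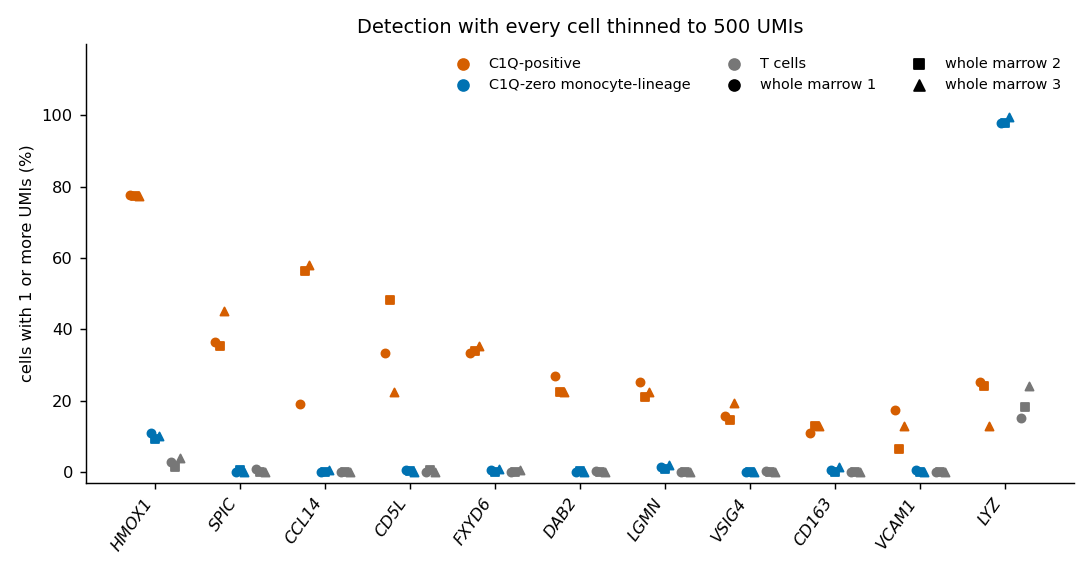
Percentage of cells with 1 or more UMIs of each gene after thinning every cell to 500 UMIs, for C1Q-positive, C1Q-zero monocyte-lineage and T cells of the 3 whole-marrow libraries (shapes). C1Q-positive cells lie above both others for HMOX1 and SPIC, with HMOX1 at 77.4% to 77.8%, and the monocyte-lineage cells lie highest for LYZ.

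Within the group, the profile differed with depth. These values are sums over libraries, with no test. The rule's fixed count of 5 C1Q UMIs asks for a larger share of C1Q in a shallow cell than in a deep one. A cell of 52158 UMIs entered with 5 C1Q UMIs. How far the rule itself set these differences was not tested. In the 92 members under 2000 UMIs, FTL was at 59278 CPM, HMOX1 at 10444, SPIC at 1595 and CD5L at 2089. The 48 members of 2000 to 10000 UMIs had 35403, 6286, 990 and 878 in the same order. In the 16 members over 10000 UMIs they were 4484, 531, 31.0 and 170. SLPI and ELANE, a protease inhibitor and the elastase of neutrophil precursors, ran the opposite way, at 1054 and 345 CPM in the shallowest members and 34127 and 13866 in the deepest.

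**Figure D5:**
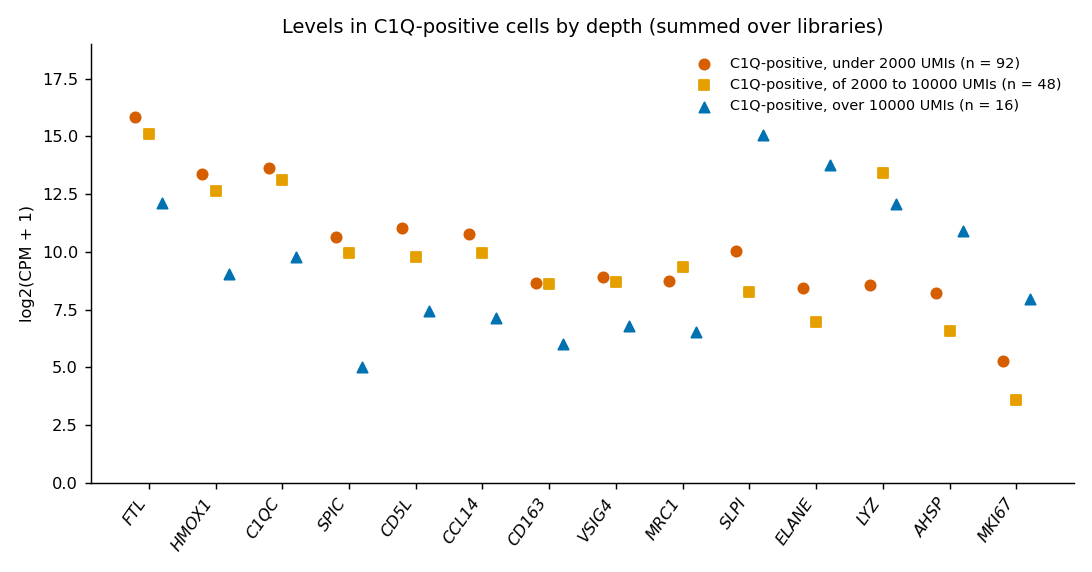
Levels in CPM, as log2 of the value plus 1, of 14 genes summed over the C1Q-positive cells of 3 depth ranges (92, 48 and 16 cells). FTL, HMOX1 and SPIC are lowest in the 16 cells over 10000 UMIs, and SLPI, ELANE, AHSP and MKI67 are highest there; C1QC is shown too, and its level in shallow cells is tied to the rule's fixed count.

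The 8 members with 1% or more of their UMIs from SLPI and ELANE held 98.7% of the group's SLPI and ELANE UMIs. In sums of all members ELANE rose against the monocyte-lineage cells (log2 fold 4.58 ± 0.28, edgeR adjusted p = 1.2e-04). It was at -0.99 (adjusted p = 0.31) in the shallower members and at -1.58 (adjusted p = 0.049) without those 8. Neutrophil progenitor markers (4 of 4 detected) summed to 10606, 8584 and 16834 CPM in all members, 1906, 2032 and 1829.6 in monocyte-lineage cells and 8209, 7465 and 8083 in all other cells, and to 1412, 809.5 and 1152 in the shallower members. Late neutrophil markers, 10 of 11 detected with CXCR2 at 0, summed to 11314, 8886 and 5066 in all members and to 11494, 9424 and 6654 in the shallower ones, against 3720.2, 3578 and 7539 in monocyte-lineage cells and 45644 to 68916 in all other cells. A simulation-based caller marked 5 of the 156 members among 745 whole-marrow doublets. The part of other cells' RNA in these sums was not tested.

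Along the C1Q count, which the rule used, several macrophage genes were detected in more cells, as a description. From 38 members with 5 to 9 C1Q UMIs to 41 with 50 or more, CD163 was detected in 2 and in 29 cells, VSIG4 in 8 and 36, LGMN in 4 and 36, and MRC1 in 6 and 26. SPIC was in 25 and 36 of them and HMOX1 in 29 and 41. The median depths of these tiers were 1755 and 2289 UMIs, and the tiers thus differed in depth as well. Levels did not follow the C1Q count throughout: HMOX1 was at 2305, 3031, 4664 and 3386 CPM in the tiers of 5 to 9, 10 to 19, 20 to 49 and 50 or more C1Q UMIs, SPIC at 398, 503, 609.6 and 473, and FTL at 17847, 19983, 29957 and 15068.

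Genes of the T and B cell marker lists were present in the sums. T cell markers, 6 of 10 detected with CD5, LCK and CD8A among those at 0, summed to 147, 78.4 and 280 CPM, against 17.5, 37.6 and 27.3 in monocyte-lineage cells and 90.5, 74.4 and 88.4 in all other cells. The members were thus above both comparators in each library, and the shallower members were at 301, 229.6 and 595. B lineage markers, 7 of 10 detected with CD79B, RAG1 and BLK at 0, summed to 5831, 6078 and 6604 against 6604, 5682 and 5599.9, and 6000.2, 5453 and 5611, so the 3 groups overlapped. A single gene, CD79A, supplied most of the sum in the monocyte-lineage cells and in the shallower members (4957, 4422 and 6338). The sum is thus mainly the level of that gene and does not measure a share of B cell RNA. The part of T and B cell RNA in the results was not tested. Endothelial and stromal markers, 2 of 12 detected, reached at most 5.53 CPM, with KDR, CDH5, CXCL12 and COL1A1 among those at 0. Monocyte lineage markers summed to 7119, 5776 and 1546 in the members and 30565, 33906 and 39489 in the monocyte-lineage cells, LYZ supplying most of either. LYZ itself was at 6743, 5416 and 970.4 against 29168, 32342 and 37963, without overlap, but missed the test (log2 fold -3.02 ± 0.85, edgeR adjusted p = 0.10).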

How the data were processed

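The deposited matrices hold raw UMI counts per gene and barcode for 5 libraries, which the authors made with Cell Ranger 7.1.0 and the dog genome CanFam3.1, per the submitters' processing notes (the file headers name 7.0.1). Replicates were not pooled by the authors. Members, gene lists and named genes were chosen with earlier results of these data known.

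Barcodes with 200 or more genes and at most 10% mitochondrial UMIs were kept. Raw counts were summed per library and cell group. The 3 groups were fitted together with edgeR 4.0.16 (R 4.3.3, limma 3.58.1; TMM scaling, filterByExpr, robust quasi-likelihood test) with the library as a block, since the groups of a library come from 1 dog, which left 4 residual degrees of freedom; Benjamini-Hochberg adjustment ran over all tested genes. Standard errors were derived from the log2 fold and its F statistic. The block removes differences in level between the 3 dogs. P-values rest on how differences between groups varied over the dogs, pooled over the 3 groups and moderated across genes. They do not measure the spread of the C1Q-positive sums alone. A fit of only the 2 groups called 995 of 6601 tested genes against the monocyte-lineage cells, and the joint fit 1416 of 8803. The fit was also run on simulated counts with a single spread and no differences between dogs. That run does not cover sums led by few deep cells, and no conclusion is drawn from it.

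Named genes were the 12 largest rises and 8 largest falls with a symbol, the same sign in each library and a mean of 50 or more CPM in the higher group, then the leading members of each list; LRP1, TREM2, HFE, C5AR1 and APOE were named after their values were seen. T cells held 3 or more UMIs of T cell markers. Scrublet (scanpy 1.11.5) marked a fixed 0.8% per 1000 cells as doublets, the top by score, and these were kept. Shares have exact Clopper-Pearson intervals, which cover counting error only. Alternatives were DESeq2 1.42.0, no filter on low counts, no block, a fit of each pair of groups, stricter C1Q and mitochondrial limits, doublets removed, another comparator, thinning to 500 UMIs, members of at most 10000 UMIs or under 1% SLPI and ELANE, and leaving out each library. Python 3.11.15, numpy 2.4.6, scipy 1.17.1 and matplotlib 3.10.9 were used. Some named items are not reported here.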

Additional observations from a re-analysis of the deposited data

How the results depend on the processing

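Counts of called genes are read beside the genes tested, which differed between settings. Against the monocyte-lineage cells 1416 of 8803 tested genes were called. With a 5% mitochondrial limit, which left 27, 35 and 16 C1Q-positive cells, 653 of 5309 were called. The count was 817 of 8803 with no replicate block for the pairing by dog. It was 317 of 1530 with every cell thinned to 500 UMIs. With a library left out 935 to 1098 were called, of 8286 to 9139 tested. Against all other cells 1265 of 8806 were called. The 5% limit gave 630 of 5312, no block 673 of 8806 and thinning 611 of 1533. Members of at most 10000 UMIs gave 2076 of 8628. With a library left out 835 to 912 were called, of 8289 to 9142 tested. DESeq2 called 865 higher and 497 lower against the monocyte-lineage cells (661 and 755 with edgeR), and 681 and 448 against all other cells (537 and 728). Among named genes, 44 of 68 called against the monocyte-lineage cells and 48 of 67 against all other cells kept direction and call in every alternative that tested them. Some genes fell below the low-count filter in part of the alternatives. C3AR1, for example, was tested against the monocyte-lineage cells in 7 of 15. Some genes reversed against the monocyte-lineage cells: TFRC at -0.65 and ELANE at -0.99 in members of at most 10000 UMIs, ELANE at -1.58 without members rich in SLPI and ELANE, and ABCA1 at -0.16 with a 5% mitochondrial limit. The difference in share between whole and sorted libraries was -0.0342 points (exact permutation p = 1) at that limit, 0.544 (p = 0.2) with 20 or more C1Q UMIs, and 0.696 to 1.02 with a library left out. At the 5% limit the sorted libraries had an SD of 0.704 (n = 2). The cause of these changes was not tested. The planned comparator without CD79A left under 20 cells in each library and was not run. Shallow members limit what could be detected per cell.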
